A study of Mus musculus with 6 samples.

Results

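Pax5, Cr2, Cd79a and Cd79b are best known from B lymphocytes, and Apoe, Cd68 and Mpeg1 from macrophages, yet reads of all 7 genes were counted in RNA of cultured mouse T cells. These 7 of the 55401 genes in the count table were selected by their detection in these same libraries, so their levels are given as a description with no test. The selection rested on levels, not on the difference between the culture groups, although earlier results of these data were known when it was made. All 7 were among the 14082 genes with enough reads to be tested.

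The T cells were cultured with supernatant of macrophages, in 3 samples from untreated macrophages (control) and in 3 samples from macrophages activated with neurofilament light chain (NFL), a protein of the axonal cytoskeleton. By the deposited design text, T cells were bead-selected from mouse spleen on CD8a, and the macrophages were CD11b-selected spleen cells given 50 ng/mL M-CSF during 7 days. By the same text, the NFL was prepared from sciatic nerve lysate and applied at 5 µg/mL for 24 h. The paper's methods differ: they describe purchased NFL, used on cultured cells at lower concentrations, and list nerve lysate as a separate treatment. Filtered supernatant formed 50% of a medium with 2% serum in both groups. The study's methods name female C57BL/6 and NOD-SCID mice, the latter called immunodeficient in the paper, and do not say which gave the spleens. The labels name no B cells or macrophages in the T-cell cultures, only macrophage supernatant.

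In a B cell, the transcription factor PAX5 holds the cell to the B lineage and switches on genes such as Cd79a. CD79A and CD79B form the signalling pair of the B-cell receptor, and CR2 (CD21) is a complement receptor that lowers the amount of antigen needed to trigger it. Macrophages in turn export cholesterol with apolipoprotein E, carry CD68 in the membrane of their lysosomes, and use MPEG1 (perforin-2) as a pore-forming protein against engulfed bacteria.

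The stretch just before the RefSeq start of a gene is shown for 3 of the genes. These hold several overlapping matches, 1 match and 0 matches to the motif of NF-κB, a transcription factor at which many macrophage cytokine signals end. The stretches hold 250 bases before the RefSeq start on build GRCm38.p6 and are written 5′ to 3′ on the strand of the gene. They lie at chr1:195176720-195176969 on the minus strand for Cr2 and at chr7:24897247-24897496 on the plus strand for Cd79a. That of Cd68 lies at chr11:69666171-69666420 on the minus strand. The annotated span of Cd79a given below starts earlier than its RefSeq start, at chr7:24897381, so its stretch lies partly inside that span. Capitals mark a match to the motif, which was searched on both strands as GGG and CC with any 5 bases between them.
Cr2: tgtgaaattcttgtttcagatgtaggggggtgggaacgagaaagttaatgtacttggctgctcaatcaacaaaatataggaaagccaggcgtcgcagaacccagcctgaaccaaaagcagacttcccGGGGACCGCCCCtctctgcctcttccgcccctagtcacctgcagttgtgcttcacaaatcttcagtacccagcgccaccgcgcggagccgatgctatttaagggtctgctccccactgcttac
Cd79a: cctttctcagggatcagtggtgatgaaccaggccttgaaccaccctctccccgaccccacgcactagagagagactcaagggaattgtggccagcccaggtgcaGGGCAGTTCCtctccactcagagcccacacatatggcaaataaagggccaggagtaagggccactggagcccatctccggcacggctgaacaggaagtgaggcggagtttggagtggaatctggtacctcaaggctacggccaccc
Cd68: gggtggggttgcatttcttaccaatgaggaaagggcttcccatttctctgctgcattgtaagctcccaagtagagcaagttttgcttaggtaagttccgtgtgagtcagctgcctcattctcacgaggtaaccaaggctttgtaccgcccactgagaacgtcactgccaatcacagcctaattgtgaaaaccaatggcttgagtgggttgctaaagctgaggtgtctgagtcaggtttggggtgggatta

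The stretch of Cr2 held 3 matches, which begin 123, 122 and 121 bases before the start and overlap in 1 run of capitals. They are shifted readings of the same place, not separate sites. That of Cd79a held a match that begins 146 bases before the start. The letters of the motif were not found in the window of Cd68, which bears on these 250 bases and not on the factor. Of the 6 genes with a RefSeq start in the table used, 5 had a match in at least 1 of their windows, and 6 of their 8 windows held one. Apoe is among the 5 only through starts inside its annotated span, with windows at chr7:19698399-19698648 and chr7:19698622-19698871. Its window ahead of that span, chr7:19699189-19699438, held 0 matches. Over all genes a match was present in 15046 of 32851 windows (45.8%), and it is a description of letters, not of a bound factor.

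The 6 libraries held 15843045 to 24639756 counts, so a gene with 3 counts had 0.122 to 0.189 CPM (counts per 1000000 counts of the library). CPM values were computed on library sizes scaled by TMM, a correction for composition that stayed between 0.994 and 1.01 here. Pairs of libraries of the same group differed by a chi-square of 1.89 to 3.41 per degree of freedom, more than sampling noise, and pairs from different groups by 4.75 to 5.36. Among all genes tested, 489 were higher and 497 lower with NFL supernatant, which is 7.00% (edgeR, adjusted p under 0.05). With library size alone as the scaling, 372 were higher and 600 lower.

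**Figure D1:**
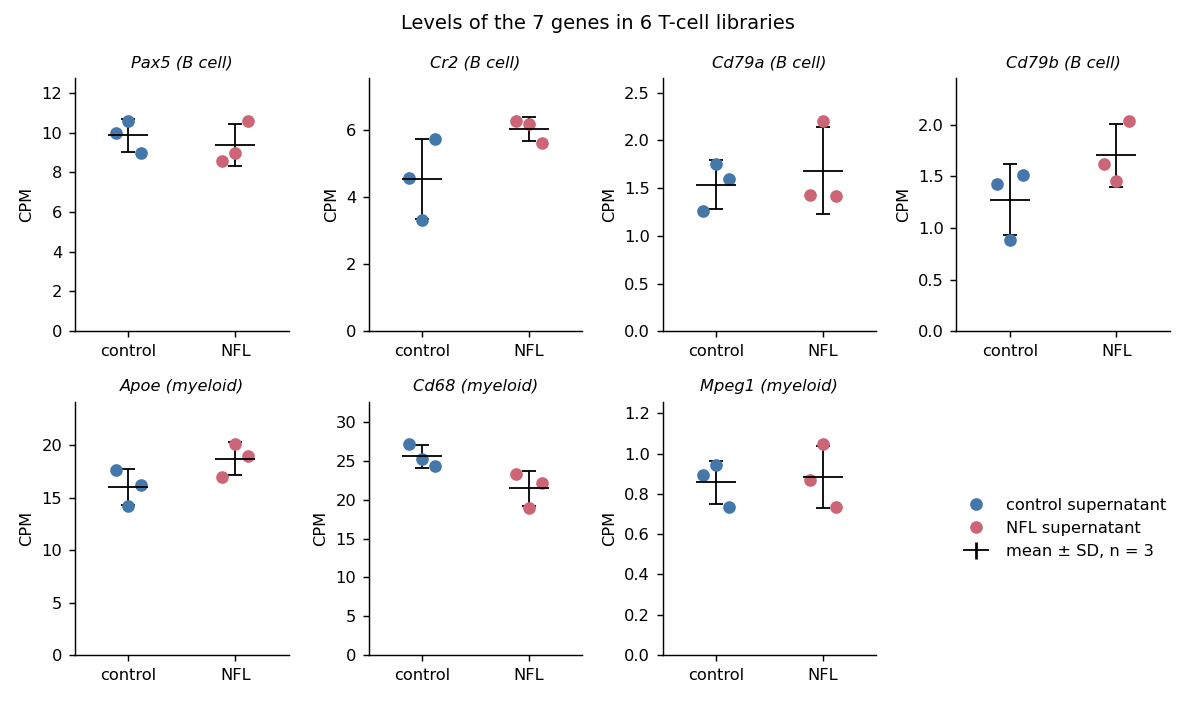
Level of each of the 7 genes in CPM (linear axis from 0, scaled for each gene), with a point per library and bars for the mean and SD of 3 control and 3 NFL libraries. The 3 NFL libraries of Cd68 (19.0 to 23.4 CPM) all lie under its 3 control libraries (24.4 to 27.1 CPM), while the groups overlap for the other genes.

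Cd68 was lower with NFL supernatant, and it was the 1 gene of the 7 that passed the test. It encodes a heavily glycosylated protein of lysosomes and endosomes and lies on the minus strand at chr11:69664213-69666153 (GRCm38, ENSMUSG00000018774.13). Control libraries 1 to 3 had 668, 402 and 595 counts, or 27.1, 25.2 and 24.4 CPM. NFL libraries 1 to 3 had 376, 326 and 390 counts, or 23.4, 19.0 and 22.1 CPM. NFL library 2 was the lowest and control library 1 the highest, and the groups did not overlap. The means were 25.6 ± 1.43 CPM and 21.5 ± 2.27 CPM (SD, n = 3 in each group), a ratio of 0.839. The log2 fold change was -0.26 ± 0.083 (SE), with a 95% interval from -0.42 to -0.088 and an adjusted p of 0.0494 by edgeR's quasi-likelihood test. That p lies close to the threshold of 0.05. Leaving out control replicate 1 gave an adjusted p of 0.254, leaving out NFL replicate 2 gave 0.370 with a log2 fold change of -0.17, and leaving out NFL replicate 3 gave 0.111. The call was also lost with limma-voom (0.0524), without the filter on low counts (0.0651), with counts thinned to the smallest library (0.0860) and with DESeq2 (0.0955). In bulk RNA, fewer cells of a type and less RNA per cell cannot be told apart, which holds for this fall and for each value that follows.

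One of 7 genes past the adjusted threshold stands beside 7.00% of all genes tested. Groups without overlap were found for 1 of the 7 genes and for 22.7% of all genes tested, and an unadjusted p under 0.05 for 3 of the 7 (Cr2, Apoe and Cd68) and for 19.3% of all. Of the 7 log2 fold changes, 5 were positive and 2 negative, with a median of 0.15 where all genes tested had -0.00099. An exact two-sided permutation test of the group means gave p = 0.1 for Cd68, the smallest that 3 against 3 libraries allow, and between 0.2 and 1 for the other genes.

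Apoe had higher values with NFL supernatant but did not pass the adjusted test. Its protein carries cholesterol and other lipids between cells and is a classical target of the sterol-sensing liver X receptors. The gene lies on the minus strand at chr7:19696109-19699188 (ENSMUSG00000002985.16). Control libraries had 435, 227 and 396 counts, or 17.7, 14.2 and 16.2 CPM. NFL libraries had 274, 346 and 336 counts, or 17.0, 20.1 and 19.0 CPM. Control library 2 was the lowest, and the groups overlapped because control library 1 exceeded NFL library 1. The means of 16.0 ± 1.72 and 18.7 ± 1.57 CPM (SD, n = 3 each) differed by a log2 fold change of 0.21 ± 0.096 (SE), with an interval from 0.021 to 0.41, an unadjusted p of 0.0306 and an adjusted p of 0.195 by edgeR.

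Mpeg1 was the least abundant of the 7 and showed no change that these counts could resolve. It lies on the plus strand at chr19:12460779-12465283 (ENSMUSG00000046805.10). Control libraries had 22, 15 and 18 counts, or 0.894, 0.941 and 0.737 CPM. NFL libraries had 14, 18 and 13 counts, or 0.870, 1.05 and 0.736 CPM. The lowest library of each group was at nearly the same level, and the groups overlapped throughout. The log2 fold change was 0.054 ± 0.40 (SE), and its interval from -0.76 to 0.87 leaves room for a change of either sign (edgeR, adjusted p = 0.966).

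Among the B-cell genes, Pax5 had nearly the same mean in both groups. It lies on the minus strand at chr4:44524757-44710487 (ENSMUSG00000014030.15). Its counts were 246, 169 and 219 in control libraries (9.997, 10.6 and 8.97 CPM) and 138, 154 and 187 in NFL libraries (8.57, 8.95 and 10.6 CPM). Both groups reached the same upper level, and NFL library 1 was the lowest. With means of 9.86 ± 0.830 and 9.37 ± 1.07 CPM (SD, n = 3 each), the log2 fold change was -0.063 ± 0.12 (SE). Its interval ran from -0.31 to 0.19 (edgeR, adjusted p = 0.851), and with 1 library left out the value lay between -0.16 and -0.0015.

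Cr2 had the widest spread among control libraries relative to its counting error. Counts of 112, 53 and 140 gave 4.55, 3.33 and 5.73 CPM in the control libraries. In the NFL libraries 101, 106 and 99 counts gave 6.27, 6.16 and 5.61 CPM. The NFL libraries lay close together, control library 2 was the lowest, and control library 3 exceeded NFL library 3, so the groups overlapped. The spread between libraries was 26.5% of the mean in controls and 5.93% with NFL, against 9.91% for counting error alone. The log2 fold change of 0.38 ± 0.17 (SE), with an interval from 0.032 to 0.72, had an unadjusted p of 0.0328 and did not pass the adjusted test (edgeR, adjusted p = 0.203). It was 0.23 without control replicate 2 and 0.58 without control replicate 3. The identifier of Cr2 in the count table, ENSMUSG00000026616.16, has a later version than the model used for its length (minus strand, chr1:195136811-195176716).

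The receptor pair Cd79a and Cd79b was counted at nearly equal, low levels. Cd79a, on the plus strand at chr7:24897381-24902197 (ENSMUSG00000003379.7), had 31, 28 and 39 counts in control libraries (1.26, 1.76 and 1.60 CPM) and 23, 38 and 25 in NFL libraries (1.43, 2.21 and 1.42 CPM). Cd79b, on the minus strand at chr11:106311341-106314762 (ENSMUSG00000040592.11), had 35, 14 and 37 counts in control libraries (1.42, 0.879 and 1.51 CPM) and 26, 25 and 36 in NFL libraries (1.62, 1.45 and 2.04 CPM). The highest library was NFL library 2 for Cd79a but NFL library 3 for Cd79b, and both genes overlapped between the groups. The log2 fold change of Cd79a was 0.15 ± 0.32 (SE), with an interval from -0.49 to 0.79 (edgeR, adjusted p = 0.865). That of Cd79b was 0.39 ± 0.33 (SE), with an interval from -0.27 to 1.05 (edgeR, adjusted p = 0.586). Counting error alone amounts to 18.1% and 18.6% of the mean for these genes, and leaving out NFL replicate 2 turned the value of Cd79a to -0.096. The value of Cd79b was 0.22 without control replicate 2 and 0.24 without NFL replicate 3.

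**Figure D2:**
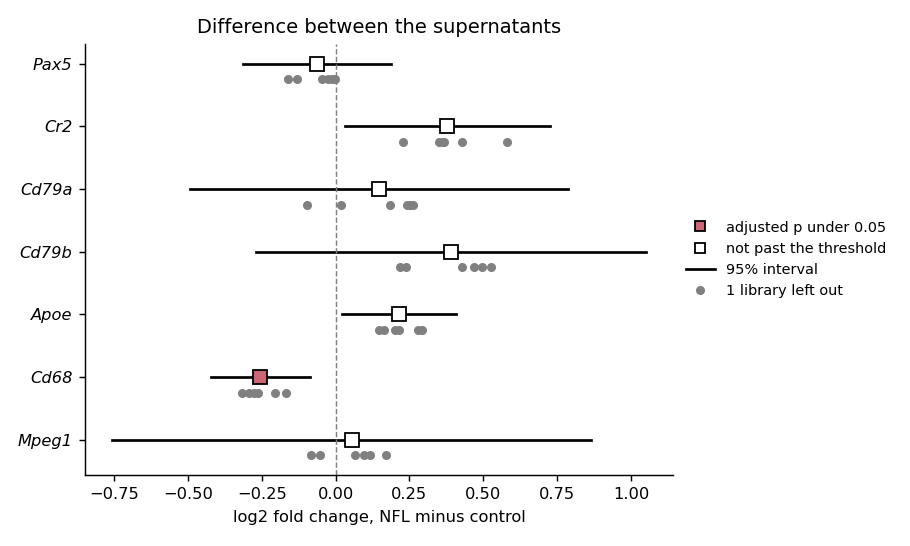
Log2 fold change, NFL minus control, of the 7 genes with the 95% interval from edgeR, a filled square where the adjusted p is under 0.05, grey points for the value with 1 library left out, and a line at 0. The unadjusted intervals of Cd68, Apoe and Cr2 exclude 0, that of Mpeg1, from -0.76 to 0.87, is the widest, and the grey points of Cd79a and Mpeg1 lie on both sides of 0.

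To compare genes with each other, CPM was divided by the summed exon length in kb. On this scale of level, Cd68 had a median of 19.0 CPM per kb over the 6 libraries, which was above 77.9% of the tested genes with a length. Apoe followed at 8.11 CPM per kb (above 56.7% of genes). Pax5 at 1.07, Cd79a at 1.04 and Cd79b at 1.04 CPM per kb overlapped in their ranges over libraries and cannot be ordered. Cr2 at 0.699 CPM per kb overlapped the range of Cd79b, and Mpeg1, at 0.203, lay apart from all others and above 3.31% of genes. The macrophage genes thus stood at both ends of the order, with the B-cell genes between them.

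The libraries carried most markers of T cells and few of the markers that define B cells or macrophages. Of 19 T-cell markers 16 were tested, while Cd2 and Cd5 had 0 counts in every library. Median levels of those tested ran from 1.28 CPM (Cd8b1) to 1641 and 1762 CPM (Thy1 and Il2ra). Trbc1 (357), Zap70 (189) and Cd3e (53.6 CPM) lay above Cd68, the highest of the selected genes at 23.9 CPM. Trac (1.59), Cd8a (3.92), Cd3d (4.15), Lck (4.43) and Cd3g (7.63 CPM) lay below Pax5 at 9.48 CPM. The T-cell markers thus did not stand above the selected genes as a whole. Of the 16 tested, 3 passed the edgeR test, beside 7.00% of all genes tested. Il2ra rose (log2 fold change 0.18), and Cd3e (-0.28) and Zap70 (-0.12) fell. On the scale of level per length, Cd4 had a median of 6.39 CPM per kb and Cd8a of 1.08 CPM per kb in these libraries named for T cells and, in the design text, for CD8a selection. Of 24 B-cell markers, the 4 genes above included, 6 were tested, 11 had at most 3 counts in every library, and 3 of these 11 (Ms4a1, Ighm and Blk) had none. The immunoglobulin genes Igkc and Ighd reached 1 count at most, and Cd22, Blnk and Ebf1 reached 2. The other B-cell markers tested were Fcmr, the receptor for IgM, at 8.31 CPM and Bank1, an adaptor of B-cell receptor signalling, at 1.41 CPM. The summed B-cell markers had 27.6 to 29.6 CPM in control libraries and 28.9 to 31.4 CPM in NFL libraries.

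Of 27 macrophage and monocyte markers, 6 were tested and 19 had at most 3 counts in every library. Among those with 0 counts throughout were the complement genes C1qa, C1qb and C1qc, the lipopolysaccharide co-receptor Cd14 and the integrin gene Itgam. The lysozyme gene Lyz2 reached 2 counts, the M-CSF receptor gene Csf1r 3 and Adgre1, which encodes F4/80, 5 counts. The summed list had 223.9 to 238.0 CPM in control libraries and 223.3 to 230.7 CPM in NFL libraries, of which Fcer1g, the common gamma chain of Fc receptors, had a median of 181 CPM. Without Apoe, Cd68 and Mpeg1 the sum was 182.6 to 197.6 CPM and 183.2 to 189.4 CPM, so it overlapped between the groups. Tyrobp at 1.10 CPM and Aif1 at 2.08 CPM were detected as well.

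**Figure D3:**
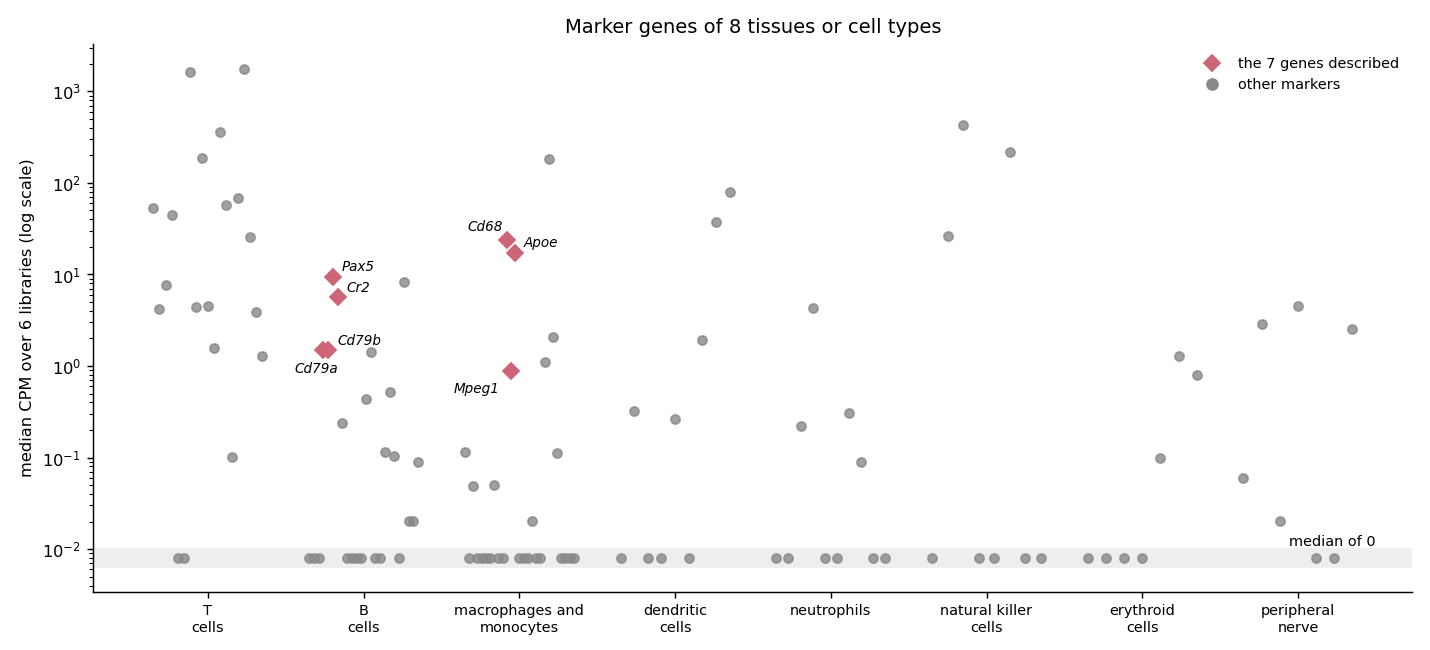
Median level over the 6 libraries, in CPM on a log axis, of the markers of 8 tissues or cell types, with the 7 genes as named diamonds, other markers as grey points and medians of 0 in the grey band. The 7 genes lie at 0.882 to 23.9 CPM, and many other B-cell and macrophage markers lie in the band of 0. The highest T-cell points are Il2ra and Thy1 at 1762 and 1641 CPM, while others, such as Trac (1.59) and Cd3d (4.15 CPM), lie within the range of the 7 genes.

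Markers of other cells moved with the culture groups in part. Natural killer markers summed to 710 to 753 CPM in control and 631 to 654 CPM in NFL libraries. Of 3 tested, Klrb1c (log2 fold change -0.51) and Gzma (-0.45) fell, beside 3.53% of all genes tested. Of the 8 natural killer markers 5 had at most 3 counts in every library, Ncr1 and Klrd1 among those at 0, and Eomes, at a median of 432 CPM, had a log2 fold change of -0.042 (edgeR adjusted p = 0.486). Eomes and Gzma are also expressed by cytotoxic T cells. Dendritic cell markers summed to 107.5 to 120.0 CPM in control and 121.6 to 129.1 CPM in NFL libraries. Irf8 and Batf3, at medians of 80.3 and 37.6 CPM, held most of these sums. Of 3 tested, Batf3 rose (log2 fold change 0.33, edgeR adjusted p = 0.000492), beside 3.47% of all genes tested. The other dendritic markers tested did not pass, Itgax at -0.35 (edgeR adjusted p = 0.638) and Irf8 at 0.089 (0.363), and Flt3, Siglech and Cd209a had 0 counts in every library. Neutrophil markers summed to 4.10 to 5.57 CPM and 5.04 to 5.78 CPM, and peripheral nerve markers to 9.42 to 10.7 CPM and 9.46 to 10.5 CPM. Whether any such cells were present, or had a part in the fall of Cd68, was not tested.

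Genes that act with the 7 in the same pathways were read from the same fit. Of 14 tested B-cell transcription factors from a list of 22, 3 fell and none rose, beside 3.53% of all genes tested that fell. These were Tcf3, which encodes E proteins that open the B-cell programme (log2 fold change -0.27 ± 0.047 SE, edgeR adjusted p = 6.55e-05), Ikzf1, which encodes the lymphoid factor Ikaros (-0.22), and Id2, an inhibitor of E proteins (-0.22). All of them are also used by T cells. Pax5 itself was not among them. The list's median log2 fold change was -0.027, and 3 genes of the list fell under each of the 3 scalings tried.

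In the B-cell receptor complex and its signalling list, 14 of 24 genes were tested and 2 fell, which is likewise set beside the 3.53% of all genes tested. They were Fyn, a Src-family kinase (log2 fold change -0.20, edgeR adjusted p = 0.000175), and Inpp5d, which encodes the lipid phosphatase SHIP1 (-0.22, adjusted p = 0.0383). Both act in T cells too, and DESeq2 called 1 of the 7 genes of this list to which it gave an adjusted p.

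Of the complement receptors and regulators, the list that holds Cr2, 10 of 17 were tested. C1qbp, whose protein is found mainly in mitochondria in spite of its name, was the 1 gene that rose (log2 fold change 0.14, edgeR adjusted p = 0.00485), beside 3.47% of all genes tested that rose, and none fell. Among 11 tested of 18 genes of apolipoproteins and lipid transport by liver X receptors, edgeR and limma-voom called 0, with 2 at an unadjusted p under 0.05, and DESeq2 called 0 of the 8 to which it gave an adjusted p. Nr1h2, which encodes the liver X receptor beta, was counted at 39.3 CPM, and the lipoprotein receptor gene Lrp8 at 146 CPM. Lrp1, another receptor for apolipoprotein E, had a log2 fold change of 0.44 ± 0.15 (SE) that did not pass the test (edgeR adjusted p = 0.0712).

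Lysosomal membrane glycoproteins gave 8 tested genes of 10, and Cd68 was the 1 that fell, beside 3.53% of all genes tested. Limma-voom called 0 of the 8, and DESeq2 called 0 of the 7 to which it gave an adjusted p. Lamp1 and Lamp2, relatives of Cd68, at 522 and 218 CPM, had log2 fold changes of -0.024 and -0.053 (edgeR adjusted p = 0.722 and 0.406). Of the pore-forming family of Mpeg1, 3 of 12 genes were tested, and edgeR and limma-voom called 0 of them, with 0 at an unadjusted p under 0.05. DESeq2 called 0 of the 2 to which it gave an adjusted p, and it gave none to Mpeg1. Prf1, the perforin of cytotoxic lymphocytes, stood at 44.6 CPM with a log2 fold change of 0.038.

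The genes on either side were examined because reads that run past the end of an abundant gene can be counted in the next. Eif4a1, a translation initiation factor, lies 782 bases upstream of Cd68 on the same strand, and its median of 1161 CPM puts the CPM of Cd68 at 2.06% of it. Eif4a1 had 1141 ± 33.9 CPM in control and 1202 ± 50.1 CPM in NFL libraries (SD, n = 3 each), with a log2 fold change of 0.075 (edgeR adjusted p = 0.1001). Mpdu1, 1570 bases away, had a log2 fold change of 0.0086 (edgeR adjusted p = 0.972).

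Rps19, a ribosomal protein gene, lies 7574 bases upstream of Cd79a on the same strand. Cd79a had 0.528% of the level of Rps19 in CPM, and Rps19 rose with NFL by a log2 fold change of 0.11 (edgeR adjusted p = 0.0267). Downstream of Cd79a, Arhgef1 begins 714 bases away at a median of 151 CPM. For Apoe the neighbours, both on the same strand, were Apoc1 at 31.4 CPM, 3448 bases downstream, and Tomm40 at 114 CPM, 2124 bases upstream. Apoe had 15.3% of the level of Tomm40 in CPM. Apoc1 and Tomm40 had log2 fold changes of 0.036 and 0.057 that did not pass. Cr1l, a homologous complement regulator 5224 bases from Cr2 on the same strand, had 115 CPM. Reads shared between Cr2 and Cr1l could be assigned to either, so the level of Cr2 is uncertain to that extent.

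Cd79b and Mpeg1 had no gene with many reads beside them. Gh and Scn4a, on either side of Cd79b, had medians of 0.0785 and 0.250 CPM, and Dtx4, 1054 bases from Mpeg1, had 0.183 CPM. Of the 4 annotated genes whose spans overlap Pax5, none had a count in any library, and its nearest coding neighbours Zcchc7 and Melk lie 45389 and 160081 bases away. Reads from a neighbour were not traced, and their part in any of these levels was not tested.

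**Figure D4:**
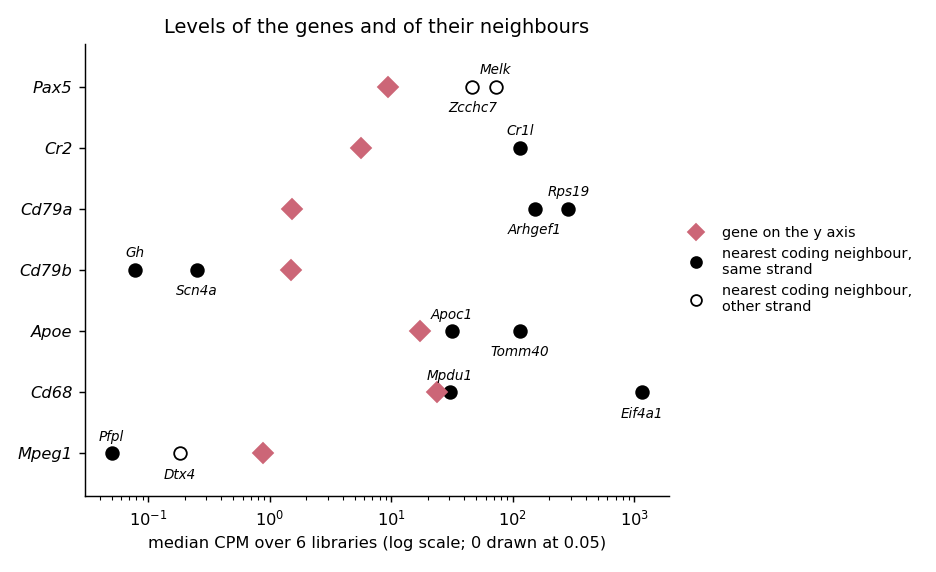
Median level over the 6 libraries, in CPM on a log axis (0 drawn at 0.05), of the 7 genes (diamonds) and of the nearest coding genes on either side, filled where on the same strand and open where on the other. Eif4a1 beside Cd68 (1161 CPM) and Rps19 beside Cd79a (287 CPM) took many more reads than the gene they flank, whereas Gh, Scn4a and Dtx4 stay at or below 0.250 CPM and Pfpl is at 0.

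The genes whose log2 CPM followed each of the 7 most closely over the 6 libraries are given as a description, since 14081 genes were compared on few points that share depth and library composition. Cd68 was followed by Gm10832 (r = 0.998) and by Ngfr, the low-affinity neurotrophin receptor gene (r = 0.993). Apoe was followed by Fsbp (0.994) and Nom1 (0.993), and Pax5 by Tnfrsf22 (0.975) and Uxs1 (0.974). For Cr2 they were Gm14288 (0.996) and 4930477N07Rik (0.992), for Cd79a Arpc5l (0.985) and Tomm40 (0.973), for Cd79b Gm12524 (0.995) and Pigg (0.988), and for Mpeg1 4921534A09Rik (0.967) and Becn1 (0.964). None of these 14 genes is a B-cell or macrophage marker of the lists. Only 6 B-cell and 6 macrophage markers were tested, the 7 genes included, so their absence here cannot speak to cell type. Of the 14, edgeR called 0 (lowest adjusted p 0.250), beside 7.00% of all genes tested.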

How the data were processed

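RNA of 6 samples of mouse T cells was measured by bulk sequencing of poly(A)-selected libraries. The authors deposited raw read counts per gene, with 1 column per sample and no normalization. The submitters' processing notes name GRCm39, R 4.2.1 and limma 3.54.2. Which aligner, counter and strand setting were used is not given in the sources used here. Of 55401 identifiers, 54349 are identical, version included, to GENCODE M21 on GRCm38, which was used for coordinates, lengths and neighbours. Cr2 was the 1 gene of the 7 with another version. Promoter sequences are RefSeq's.

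Counts were analysed in R 4.3.3. Genes kept by filterByExpr (minimum count 10, minimum total 15) were TMM-scaled, and edgeR 4.0.16 tested the groups by its quasi-likelihood functions (glmQLFit, glmQLFTest), with p-values adjusted after Benjamini and Hochberg over 14082 genes and a threshold of 0.05. The labels do not say that samples came from separate cultures or animals, so p-values measure the spread between these samples, which may be technical. The intervals given are those of log2 fold changes from edgeR, which take in the spread between libraries and not counting error alone. Alternatives were other scalings, filters and tools (DESeq2 1.42.0, limma-voom of limma 3.58.1), thinned counts, a replicate block and each replicate left out. On simulated data of 13891 genes, edgeR recovered 68 of 99 genes changed by 0.5 on the log2 scale and 91 of 100 changed by 1, with 13 false calls. Every simulated gene had the same spread between libraries beyond counting error, so the recovery and false calls do not carry over to genes of wider spread. Recovery was counted over genes of all levels together, and changes under 0.5 were not simulated. It therefore cannot give the power for a change as small as that of Cd68, or for genes with few counts.

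The genes named are the 7, their annotated neighbours and overlapping genes, the 2 genes closest in correlation to each, and genes of marker and pathway lists that were detected, that define a cell type or that passed the test. The 7 genes and all lists were chosen with earlier results of these data known. Other genes named as examples of a list were chosen after their values were seen. Some single genes of the lists are not reported here, but counts and sums over lists hold them. Figures were drawn with matplotlib 3.10.9.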

Additional observations from a re-analysis of the deposited data

How the results depend on the processing

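The fall of Cd68 kept its sign under every alternative run but passed the threshold under 7 of 14. The log2 fold change was -0.26 without a filter (adjusted p = 0.0651), -0.26 with DESeq2's Wald test (0.0955), -0.26 with limma-voom (0.0524) and -0.24 with counts thinned to the smallest library (0.0860), so 0 of the 7 genes passed under those 4 settings. With each replicate left out in turn, Cd68 ranged from -0.32 to -0.17 and the number of the 7 genes that passed from 0 to 1. The cause was not tested. Of the other 6 genes, none passed under an alternative that gave it an adjusted p, with values from 0.0559 (Cr2) to 0.997 (Pax5). DESeq2 gave no adjusted p for 4 of the 7 (Cr2, Cd79a, Cd79b and Mpeg1).

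Values at low counts changed sign. Mpeg1 was at -0.055 with thinned counts and from -0.084 to 0.17 with a replicate left out, and Cd79a from -0.096 to 0.26. Over all genes, the number past the threshold ranged from 508 to 966 with a replicate left out (616 without NFL replicate 2, 508 without NFL replicate 3), from 250 to 514 for higher and from 258 to 452 for lower genes. With the replicate number as a block, 1049 genes passed and Cd68 was at -0.25 (adjusted p = 0.0490). Deviations of same-numbered samples correlated at 0.0147, 0.00972 and 0.00534, the highest for each sample, but too weakly to pair them. The block changed no call among the 7. Depth limits Cd79a, Cd79b and Mpeg1 most, at 13 to 39 counts per library.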
